A study of Homo sapiens with 6 samples.

Results

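The genes described here are those of the cytosolic HSP70 and HSP110 chaperones, with the transcription factor that drives their heat shock response. There are 10 of them, chosen by name: HSPA1A, HSPA1B, HSPA8, HSPA2, HSPA4, HSPA4L, HSPH1, HSPA13, HSPA14 and HSF1. They make up 11 of the 36601 rows of the gene count table, because HSPA14 names 2 rows. All 11 rows passed the filter on low counts.

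The libraries came from U2OS, a human osteosarcoma cell line, carrying TDP-43-mNLS-Clover, a Clover-tagged TDP-43 whose nuclear import signal is mutated, expressed from a doxycycline-induced transgene. The aggregates group consisted of 3 libraries of cells transfected with 50 nM fibril seeds of the TDP-43 low-complexity domain (LCD) using lipofectamine-3000, and sorted by image-based flow cytometry for visible Clover aggregates. The diffuse group consisted of 3 libraries of cells mock transfected with protein storage buffer and sorted for diffuse Clover. Both groups carried the induced transgene and were collected 48 hours after transfection. Fibril exposure, aggregate formation and sort gate coincide with the groups and cannot be told apart. Each library came from its own transfection, all 6 share 1 batch label, and the sources used here do not say whether the line is 1 clone.

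HSP70 proteins bind exposed hydrophobic stretches of other proteins in a cycle of ATP binding and hydrolysis. J-domain proteins speed the hydrolysis, and nucleotide exchange factors, among them the HSP110 proteins, release ADP so that the client is let go. HSF1 is held inactive in unstressed cells and, once active, binds heat shock elements in promoters such as those of HSPA1A and HSPA1B. HSP70, HSP110 and J-domain proteins together can take apart some protein aggregates. HSPA13 is included by name, although the protein it encodes is known to associate with microsomes rather than to be cytosolic.

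The libraries held 40279084 to 46863013 gene counts, so that 1 count was worth 0.0213 to 0.0248 CPM (counts per 1e+06 counts of a library). Levels below are CPM scaled by edgeR's TMM method. TARDBP, the gene of TDP-43, had 2534, 2590.1 and 2617 CPM in the aggregates libraries, against 7368, 7267 and 7685 CPM in the diffuse libraries, and whether reads of the transgene are counted in it is not given in the sources used here. Of 6 osteosarcoma and mesenchymal markers, summed CPM ranged from 3475 to 3779 in aggregates libraries and from 5719 to 5947 in diffuse libraries, with 2 of the 6 higher, 3 lower and 1 not past the test. The sum of 5 blood markers was 0.382 to 0.676 CPM in aggregates libraries and 0.773 to 1.08 CPM in diffuse libraries, with LYZ and HBB at 0 or 1 count in every library. The sum of 5 epithelial markers was 319.8 to 323 CPM in aggregates libraries and 687 to 749 CPM in diffuse libraries (3 lower, 2 not past the test). The sum of 5 neuronal markers was 146 to 149 CPM in aggregates libraries and 96.7 to 98.7 CPM in diffuse libraries (2 higher, 3 lower). Whether these marker differences play a part in the values below was not tested, and in these bulk samples fewer cells of a type and less RNA per cell cannot be told apart.

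The stress-inducible pair HSPA1A and HSPA1B showed the largest rises among the 11 rows, and the constitutive HSPA8 and the HSP110 gene HSPA4 rose less. HSPA13 and the scarce HSPA2 fell, HSPH1 and HSF1 rose by small amounts, and HSPA4L and 1 row of HSPA14 did not pass the test. By edgeR's quasi-likelihood test with an adjusted p under 0.05, 7 of the 11 rows rose and 2 fell. Over all 17839 genes tested, 75.4% passed, 37.8% rising and 37.6% falling, which makes passing the test the usual outcome in this comparison. For 9 of the 11 rows the values of the groups did not overlap, as for 76.2% of all genes tested. The median log2 fold change was 0.29 over the 11 rows, beside 0.01 over all genes tested. Since so many genes passed, sizes rather than counts set the rows apart from one another. A rise of more than 2-fold was found for 6.68% of all genes tested, and for HSPA1A and HSPA1B among the 11 rows.

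**Figure D1:**
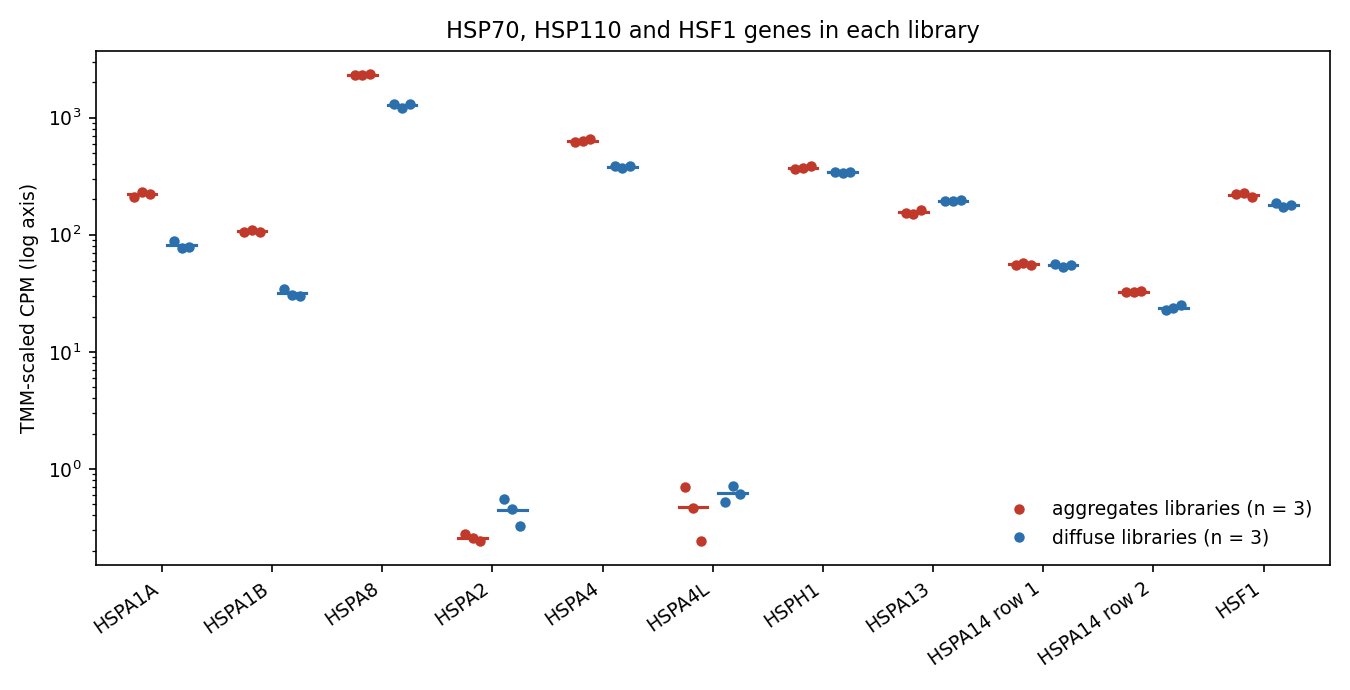
TMM-scaled CPM (log axis) of each of the 11 rows in the 3 aggregates libraries (red) and the 3 diffuse libraries (blue), with a short line at each group's mean. HSPA1A lies at 211 to 229.5 CPM in aggregates libraries and 77.1 to 88.2 CPM in diffuse libraries, whereas HSPA2 and HSPA4L lie below 1 CPM in all 6.

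HSPA1A and HSPA1B are intronless neighbours in the major histocompatibility region on the plus strand of chromosome 6, at 31815464 to 31817946 and 31827735 to 31830255 (hg38, GENCODE 29). Their coding sequences differed at 4 of 1923 bases, an identity of 99.8%, with a longest identical run of 1709 bases. Reads from that run cannot be assigned to either gene by sequence, and how the authors counted such reads is not given in the sources used here. Their RefSeq promoters (GRCh38.p14, 250 bases before to 50 after the annotated start, plus strand) are shown because each holds 1 pair of inverted heat shock blocks, GAANNTTC, in capitals.
HSPA1A promoter, chr6:31815293-31815592: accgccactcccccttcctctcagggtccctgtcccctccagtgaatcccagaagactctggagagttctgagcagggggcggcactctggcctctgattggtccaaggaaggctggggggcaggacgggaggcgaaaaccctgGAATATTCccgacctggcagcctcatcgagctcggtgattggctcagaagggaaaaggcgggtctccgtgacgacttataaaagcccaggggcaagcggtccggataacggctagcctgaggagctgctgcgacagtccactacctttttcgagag
HSPA1B promoter, chr6:31827488-31827787: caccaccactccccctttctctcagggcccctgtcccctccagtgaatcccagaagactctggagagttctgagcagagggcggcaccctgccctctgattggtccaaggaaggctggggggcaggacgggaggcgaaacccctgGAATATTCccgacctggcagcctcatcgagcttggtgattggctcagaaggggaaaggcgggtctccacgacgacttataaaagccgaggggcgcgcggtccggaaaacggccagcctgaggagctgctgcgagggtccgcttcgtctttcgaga
The capitals lie 106 to 99 bases before the start in HSPA1A and 105 to 98 bases before it in HSPA1B, and both promoters also hold the letters TATAAA, from 30 bases before the start in HSPA1A and from 29 bases before it in HSPA1B.

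HSPA1A, which encodes the major heat-inducible HSP70, had 211, 229.5 and 222 CPM in the aggregates libraries, against 88.2, 77.1 and 78.5 CPM in the diffuse libraries. All 3 aggregates libraries lay above all 3 diffuse libraries, and the lowest of them was more than 2-fold above the highest diffuse value. The means were 221 ± 9.45 CPM and 81.3 ± 6.07 CPM (SD, n = 3 each), a 2.72-fold difference with a log2 fold change of 1.44 (SE 0.04, edgeR quasi-likelihood test, adjusted p = 2.12e-37). This fold change was higher than that of 96.9% of the genes tested.

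HSPA1B, which encodes a near-identical protein, had 105, 109 and 106 CPM in the aggregates libraries, against 34.4, 30.7 and 30.2 CPM in the diffuse libraries. The groups were again fully separated, and the aggregates libraries spanned only a narrow range. The means were 107 ± 1.9 CPM and 31.8 ± 2.25 CPM, a 3.36-fold difference (log2 fold change 1.75, SE 0.04, edgeR adjusted p = 2.37e-57), higher than for 97.9% of the genes tested. Summed to 1 row, to set aside how counted reads were split between the copies, the pair had 316, 338 and 328 CPM in the aggregates libraries, against 123, 108 and 109 CPM in the diffuse libraries. Shared reads that the counter left out, if any, are missing from the sum as well. The summed row was 2.9-fold higher in aggregates (log2 fold change 1.53, SE 0.04, edgeR adjusted p = 4.57e-43).

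Within the pair, the reads counted to HSPA1B made up 33.3% (exact Clopper-Pearson 95% interval 32.5 to 34.1), 32.2% (31.4 to 32.9) and 32.3% (31.6 to 33.1) in the aggregates libraries. In the diffuse libraries they made up 28.0% (26.8 to 29.3), 28.5% (27.2 to 29.8) and 27.8% (26.5 to 29.1). The share was thus higher in every aggregates library than in any diffuse library, with means of 32.6 ± 0.622% and 28.1 ± 0.354%. An exact two-sided permutation test over the 6 libraries gave p = 0.1, the smallest that 3 against 3 allows, and the intervals cover counting error only. GENCODE 29 also places a processed transcript, AL671762.1, over 1422 bases of HSPA1B on the same strand, which leaves the assignment of HSPA1B reads uncertain.

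HSPA8 (chromosome 11, 123057489 to 123063230, minus strand) encodes HSC70, the constitutive HSP70 that also uncoats clathrin vesicles and takes part in chaperone-mediated autophagy. Its RefSeq promoter, on the minus strand, is shown because it holds 3 alternating heat shock blocks, GAANNTTC followed by NNGAA, at 2 places, in capitals, the second read on the opposite strand.
HSPA8 promoter, chr11:123062087-123062386: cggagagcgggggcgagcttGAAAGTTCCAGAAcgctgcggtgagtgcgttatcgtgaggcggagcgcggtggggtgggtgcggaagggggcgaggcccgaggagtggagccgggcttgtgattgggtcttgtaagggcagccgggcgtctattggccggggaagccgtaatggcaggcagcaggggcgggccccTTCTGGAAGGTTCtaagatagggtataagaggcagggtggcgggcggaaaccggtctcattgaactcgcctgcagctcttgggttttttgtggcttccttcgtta
These lie 230 to 218 and 55 to 43 bases before the start. The gene had 2325, 2309.6 and 2349.8 CPM in the aggregates libraries, against 1311, 1214 and 1317 CPM in the diffuse libraries. The aggregates libraries lay close together and well above the diffuse libraries. The means were 2328 ± 20.3 CPM and 1281 ± 57.9 CPM, a 1.82-fold difference (log2 fold change 0.86, SE 0.04, edgeR adjusted p = 6.36e-36).

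Among all 35116 RefSeq promoters of the same length, searched on both strands, the 3-block motif was present in 172 (0.49%), GAANNTTC in 6.77%, TTCNNGAA in 7.74% and TATAAA in 11.5%. The GAANNTTC and TTCNNGAA matches in HSPA8 fall inside its 3-block matches. Promoters were found for 8 of the 10 genes, 10 promoters in all. Those of HSPA4, HSPH1, HSPA2 and HSPA13 held none of these 4 motifs, and of 3 promoters of HSPA4L 1 held TTCNNGAA and another TATAAA. For HSPH1 the window, chr13:31162339-31162638, covers a single annotated start. The most upstream HSPH1 intron with its donor nearer this window took 2.51% of its cluster's reads in aggregates libraries and 4.94% in diffuse libraries. Which start most HSPH1 RNA uses was not tested. A match is a description of letters in a fixed window.

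**Figure D2:**
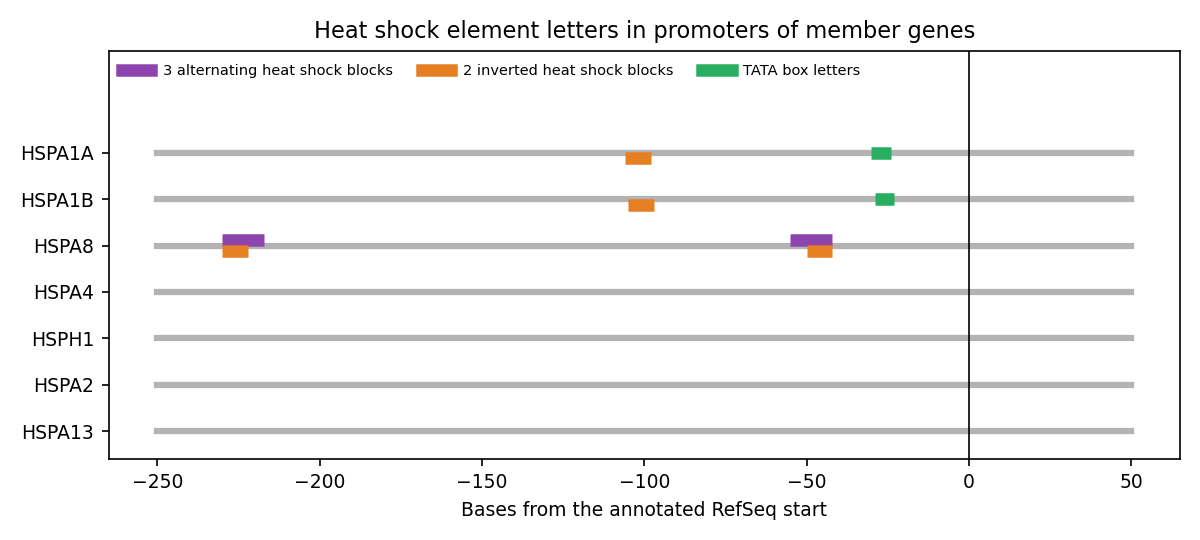
Positions of heat shock block letters and TATA box letters in the 300 bases around the annotated RefSeq start (position 0) of 7 genes, by distance in bases. HSPA8 holds 3-block matches (purple) at 2 places, HSPA1A and HSPA1B hold 1 pair of inverted blocks (orange) and TATA box letters (green) each, and HSPA4, HSPH1, HSPA2 and HSPA13 hold none.

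HSPA2 (chromosome 14, 64535905 to 64546173, plus strand) encodes an HSP70 known chiefly from male germ cells and was scarce here. It had 12, 12 and 10 counts in the aggregates libraries (0.278, 0.255 and 0.241 CPM), against 22, 19 and 14 counts in the diffuse libraries (0.551, 0.452 and 0.328 CPM). The groups did not overlap, though the lowest diffuse library came near the highest aggregates library. Its log2 fold change was -0.77 (SE 0.32, edgeR adjusted p = 0.0248). The call was lost with DESeq2 (adjusted p = 0.107), against a fold of 1.2 (edgeR adjusted p = 0.0573), and in the edgeR fits without aggregates library 2 (adjusted p = 0.0584), aggregates library 3 (0.0644), diffuse library 1 (0.142) or diffuse library 2 (0.0534). An antisense gene, AL049869.3, overlaps it by 4464 bases and had 21 counts over the aggregates libraries and 30 over the diffuse libraries; it was too low to be tested, and without a stated strand setting the reads of the pair cannot be told apart.

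HSPA4 (chromosome 5, 133051962 to 133106449, plus strand) encodes APG-2, an HSP110 protein that acts as a nucleotide exchange factor for HSP70. It had 617, 627 and 652 CPM in the aggregates libraries, against 384, 374 and 387 CPM in the diffuse libraries. Every aggregates library exceeded every diffuse library by a wide margin. The means of 632 ± 17.8 CPM and 382 ± 6.61 CPM correspond to a 1.66-fold difference (log2 fold change 0.73, SE 0.04, edgeR adjusted p = 1.23e-33).

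HSPH1 (chromosome 13, 31134974 to 31162388, minus strand) encodes HSP105, the heat-inducible HSP110 protein. It had 364, 371 and 383 CPM in the aggregates libraries, against 343, 338 and 343 CPM in the diffuse libraries. The groups did not overlap but were close. The means were 373 ± 9.56 CPM and 341 ± 2.91 CPM, a 1.09-fold difference (log2 fold change 0.13, SE 0.04, edgeR adjusted p = 0.000834). The rise did not exceed a fold of 1.2 (edgeR adjusted p = 1), and its log2 fold change was 0.28 after correction for GC content and length.

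HSPA4L (chromosome 4, 127781821 to 127840733, plus strand) encodes APG-1, the HSP110 protein best known from testis. It had 30, 22 and 10 counts in the aggregates libraries (0.695, 0.467 and 0.241 CPM), against 21, 30 and 26 counts in the diffuse libraries (0.526, 0.714 and 0.609 CPM). The groups overlapped, and the aggregates libraries differed widely among themselves. The log2 fold change was -0.39 with a 95% interval from -0.92 to 0.14, which did not pass the edgeR test (adjusted p = 0.181). Without aggregates library 1 it was -0.77 and passed (edgeR adjusted p = 0.0259), and without aggregates library 3 it was -0.1.

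Of the HSP110 genes, HSPA4 rose 1.66-fold, HSPH1 rose 1.09-fold and HSPA4L did not pass, and these fold changes were not tested against each other. The coding sequences of HSPA4 and HSPH1 were 67.6% identical and those of HSPA4 and HSPA4L 69.7%. HSPA8 was 74.6% identical to HSPA1A and 74.3% to HSPA2, with longest identical runs of 23 and 21 bases.

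HSPA13 (chromosome 21, 14371115 to 14383484, minus strand) encodes a short HSP70-like protein of the microsomal fraction. It had 154, 151 and 164 CPM in the aggregates libraries, against 193, 192 and 198 CPM in the diffuse libraries. All 3 aggregates libraries lay below the diffuse libraries. The means were 156 ± 6.66 CPM and 194 ± 2.94 CPM (log2 fold change -0.32, SE 0.04, edgeR adjusted p = 2.8e-13).

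HSPA14 encodes an HSP70 that works on ribosomes as a partner of DNAJC2. GENCODE 29 holds 2 gene models under this name on chromosome 10, ENSG00000284024.2 and ENSG00000187522.15, which overlap by 8855 bases on the plus strand. The count table has 2 rows named HSPA14 without identifiers, so which row belongs to which model is not given. The first of these in the table, row 1, had 55.6, 57.1 and 55.1 CPM in the aggregates libraries, against 55.6, 52.6 and 55.4 CPM in the diffuse libraries, with overlapping groups. Its log2 fold change of 0.04 (95% interval -0.04 to 0.12) did not pass the edgeR test (adjusted p = 0.419). The other, row 2, had 32.4, 32.2 and 33.3 CPM in the aggregates libraries, against 22.7, 23.5 and 25.3 CPM in the diffuse libraries, with the groups apart. It rose, with a log2 fold change of 0.45 (SE 0.05, edgeR adjusted p = 2.52e-14). This row made up 36.9 ± 0.813% of the counts of both rows in aggregates libraries and 30.4 ± 1.26% in diffuse libraries. Summed, the rows had a log2 fold change of 0.18 (edgeR adjusted p = 1.67e-05) that did not exceed a fold of 1.2 (edgeR adjusted p = 1). CDNF, a neurotrophic factor gene on the opposite strand that overlaps the models by 416 and 412 bases, had 84 counts over the aggregates libraries and 32 over the diffuse libraries, few beside the 4297 and 2969 counts of the row that rose.

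HSF1, on chromosome 8, encodes the main transcription factor of the heat shock response, whose activity is set mostly by trimer formation and modification of the protein rather than by its RNA level. It had 222, 227 and 209 CPM in the aggregates libraries, against 186, 172 and 180 CPM in the diffuse libraries, and the groups did not overlap. The means were 219 ± 9.44 CPM and 179 ± 6.84 CPM, a 1.22-fold difference (log2 fold change 0.29, SE 0.04, edgeR adjusted p = 1.81e-11). Tested against a fold of 1.2, the rise was not shown to exceed it (edgeR adjusted p = 0.158). DGAT1, which overlaps HSF1 by 139 bases on the opposite strand, had a log2 fold change of 0.18 at 51.4 ± 2.67 CPM in aggregates libraries and 45.3 ± 1.32 CPM in diffuse libraries. An antisense gene at the same locus, AC233992.1, had no counts in any library.

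**Figure D3:**
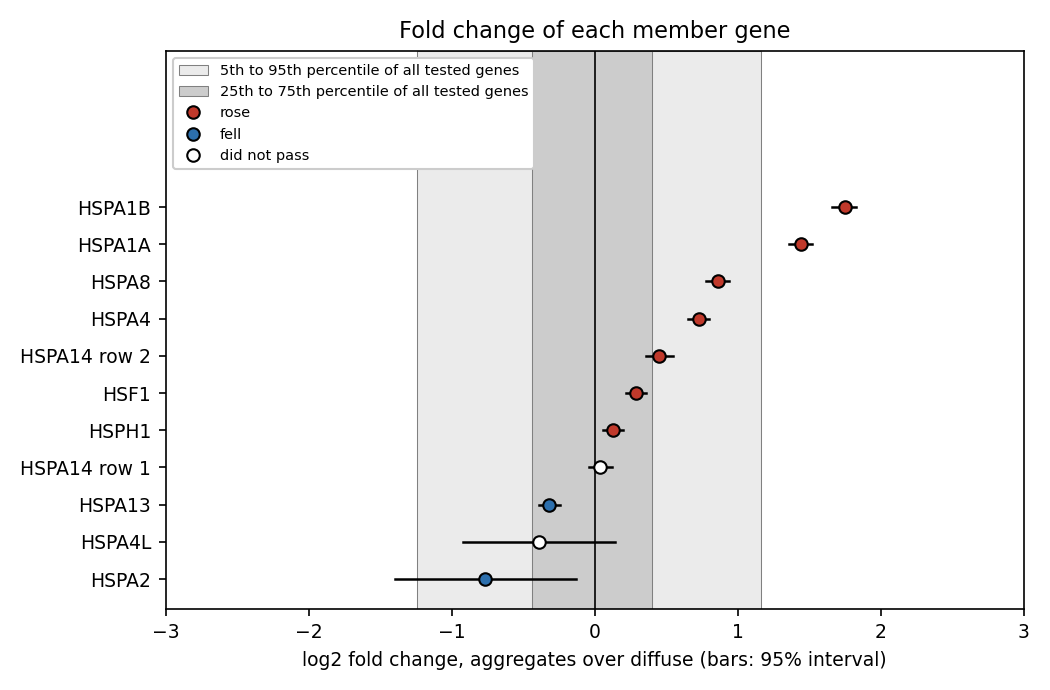
Log2 fold change, aggregates over diffuse, of each row with its 95% interval, over grey bands for the 25th to 75th (dark, -0.44 to 0.4) and 5th to 95th percentile (light, -1.24 to 1.16) of all 17839 genes tested. HSPA1A and HSPA1B lie beyond the light band, HSPA8 and HSPA4 within its upper side, and HSPH1, HSF1, HSPA13 and the first HSPA14 row inside the dark band.

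Levels can be compared between genes only per length, here that of the merged exons of all annotated transcripts. That length was 8390 bases for HSPH1 and 2483 bases for HSPA1A. It can exceed the length of the RNA present, so the order below depends on the annotation. In CPM per kilobase of merged exons, HSPA8 stood highest, at 480.1 ± 4.18 in aggregates libraries and 264 ± 12 in diffuse libraries. HSPA4 followed with 123 ± 3.46 in aggregates libraries and 74.1 ± 1.28 in diffuse libraries. HSPA1A came next in aggregates libraries, at 88.8 ± 3.81, but lay in position 6 in diffuse libraries, at 32.7 ± 2.44. HSPA13 took position 7 in aggregates libraries, at 37.2 ± 1.59, but position 3 in diffuse libraries, at 46.3 ± 0.701.

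In aggregates libraries HSPH1 (44.4 ± 1.14 CPM per kilobase) lay just above HSPA1B (42.3 ± 0.755) and HSF1 (41.3 ± 1.78). The ranges of HSPA1B and HSF1 overlapped, so their order is not resolved. In diffuse libraries HSPH1 had 40.6 ± 0.346, HSF1 33.8 ± 1.29 and HSPA1B 12.6 ± 0.891 CPM per kilobase, and the ranges of HSF1 and HSPA1A overlapped. HSPA2 and HSPA4L stood last in both groups, at 0.0447 ± 0.00322 and 0.0403 ± 0.0195 CPM per kilobase in aggregates libraries and 0.0768 ± 0.0194 and 0.0531 ± 0.00811 in diffuse libraries, and their ranges overlapped within each group. HSPA14 was not placed, because its rows are not tied to a gene model. The places of HSPA1A and HSPA1B depend on how reads shared by these near-identical copies were counted, which is not stated, so their order is uncertain.

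Summed without HSF1, the HSP70 and HSP110 rows came to 0.389%, 0.39% and 0.396% of the total count in the aggregates libraries, against 0.241%, 0.232% and 0.241% in the diffuse libraries. HSPA8 alone made up 59.6 ± 0.472% of those counts in aggregates libraries and 53.6 ± 0.758% in diffuse libraries. The HSPA1A and HSPA1B pair made up 8.38 ± 0.285% of them in aggregates libraries and 4.73 ± 0.291% in diffuse libraries. Set against HSPA8, the counts of the pair came to 13.6%, 14.6% and 13.9% in the aggregates libraries and to 9.35%, 8.89% and 8.25% in the diffuse libraries, with no overlap. HSPA8 counts exceeded those of the pair several-fold in all 6 libraries. These shares are of counts not scaled by length, and the merged exons span 4849 bases for HSPA8, 2483 for HSPA1A and 2521 for HSPA1B. The shares of the pair also depend on how reads common to both copies were counted, which is not stated. They may be too low if such reads were left out.

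The intron counts give a separate readout of 6 of the genes. HSPA1A, HSPA1B, HSPA2 and HSPA4L had no intron in that table, which lists introns in clusters that share a splice site. The other 6 genes had 98 introns in 28 clusters, of which 61 introns, holding 99.6% of the counts, are annotated in GENCODE 29. By edgeR's diffSpliceDGE test with Simes and Benjamini-Hochberg adjustment, 4 of the 28 clusters differed, beside 5.02% of the 35898 clusters tested in all. They were 2 clusters of HSPH1, 1 of HSF1 and 1 of HSPA14, and the rarer intron of the HSPH1 first-intron cluster and the exon-skipping introns of the other 3 were used less in aggregates.

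The cluster with the smallest p held a coding exon of HSPH1 of 132 bases, at 31143792 to 31143923 of chromosome 13, minus strand (hg38). It is present in 5 GENCODE 29 transcripts, 3 of them coding, and a single annotated transcript splices past it. HSP105 beta, the short form of the protein, is known to arise by alternative splicing. The whole exon is shown 5′ to 3′ because it is the stretch that the skipping intron leaves out, and its length is a multiple of 3 so that skipping keeps the reading frame.
HSPH1 exon: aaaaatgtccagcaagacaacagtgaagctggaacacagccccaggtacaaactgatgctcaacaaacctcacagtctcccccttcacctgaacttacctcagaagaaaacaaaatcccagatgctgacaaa
The intron that skips it had 13, 8 and 11 reads in the aggregates libraries, against 46, 28 and 34 in the diffuse libraries. Skipping, as a share of the skipping reads and the mean of the flanking introns, was 0.853%, 0.455% and 0.715% in the aggregates libraries, against 3.2%, 1.96% and 2.27% in the diffuse libraries. The groups did not overlap, and in every library nearly all HSPH1 reads across this site included the exon. Relative to its cluster, the skipping intron had a log2 fold change of -1.9 (edgeR cluster adjusted p = 0.000168), and the cluster passed in all 10 alternative fits, with an adjusted p of at most 0.0162. Within that cluster, the intron downstream of the exon took 51 ± 2.01% of the cluster's reads in aggregates libraries and 49.1 ± 0.885% in diffuse libraries.

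The other HSPH1 cluster concerns its most upstream introns, which share an acceptor and differ in the donor. The rarer, longer intron had 26, 28 and 33 reads in the aggregates libraries, against 34, 42 and 60 in the diffuse libraries, or 2.51 ± 0.288% and 4.94 ± 1.13% of the cluster. The ranges of the shares did not overlap (edgeR cluster adjusted p = 0.0275). The call was lost without aggregates library 1 (0.107), aggregates library 2 (0.123), diffuse library 2 (0.0635) or diffuse library 3 (0.309), values that are edgeR cluster adjusted p.

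In HSF1, the intron that skips an exon of 76 bases had 9, 16 and 15 reads in the aggregates libraries, against 21, 36 and 31 in the diffuse libraries. Skipping was 0.806 ± 0.216% in aggregates libraries and 2.36 ± 0.674% in diffuse libraries, with no overlap (edgeR cluster adjusted p = 0.0063). The skip is annotated in 1 transcript, which is not coding. The call was lost without aggregates library 1 (edgeR cluster adjusted p = 0.0725) or diffuse library 2 (0.126).

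In HSPA14, the intron that skips an exon of 105 bases (chromosome 10, 14851219 to 14851323) had no read in any aggregates library, against 1, 7 and 7 reads in the diffuse libraries. The limit that a count of 0 allows is 3 counts over the group, or 0.207% of the 1446 cluster reads, and the diffuse libraries averaged 1.47 ± 1.03% of the cluster. The cluster passed (edgeR adjusted p = 0.021), on 15 reads of an intron that GENCODE 29 does not annotate. It did not pass without any 1 of the 3 aggregates libraries (0.0787 to 0.0873), without diffuse library 2 or 3 (adjusted p = 1 in either), with a minimum of 30 counts per intron (1), or with a replicate block (0.0639), all edgeR cluster adjusted p.

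**Figure D4:**
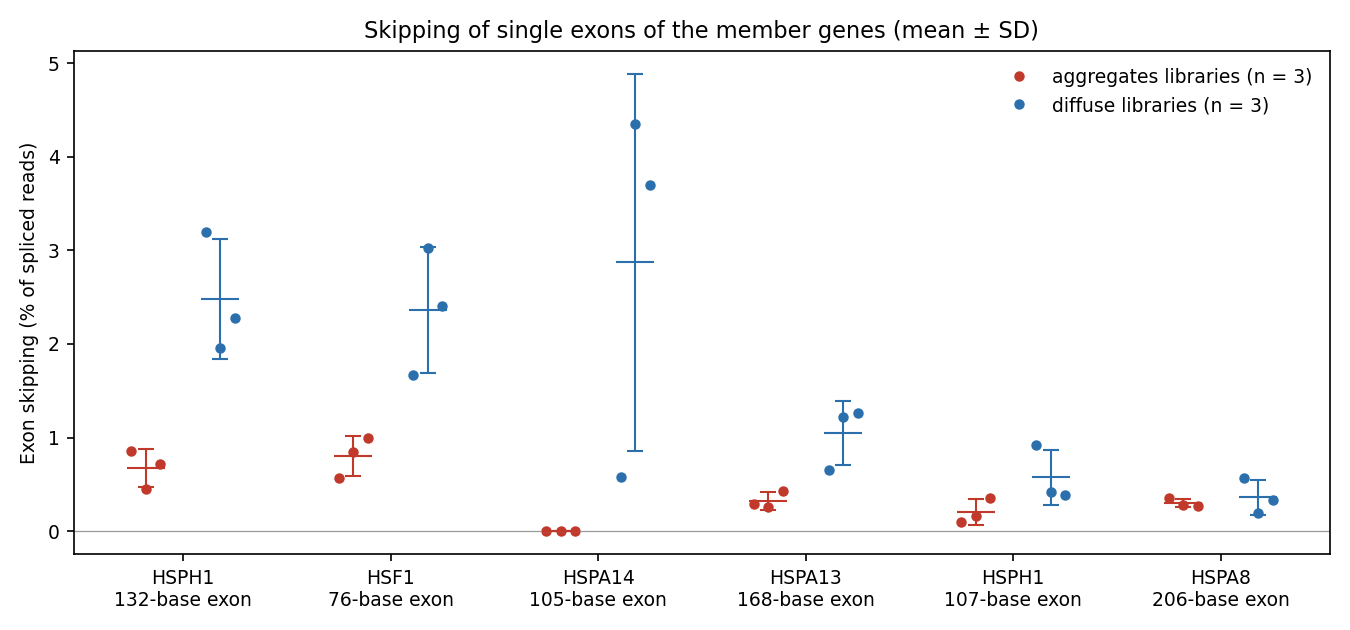
Exon skipping, in percent of spliced reads, for 6 exons of the genes in the 3 aggregates libraries (red) and 3 diffuse libraries (blue), with mean and SD bars. The 132-base exon of HSPH1, the 76-base exon of HSF1 and the 105-base exon of HSPA14 belong to clusters that passed the test, and the exons of HSPA13, HSPA8 and the 107-base exon of HSPH1 to clusters that did not.

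Of the exons in clusters that did not pass, the 168-base exon of HSPA13 was skipped in 0.326 ± 0.0941% in aggregates libraries and 1.05 ± 0.343% in diffuse libraries (edgeR cluster adjusted p = 0.433). The 206-base exon of HSPA8 was skipped in 0.3 ± 0.045% in aggregates libraries and 0.362 ± 0.188% in diffuse libraries (edgeR cluster adjusted p = 1). In the most upstream cluster of HSF1 the most used intron took 81.2 ± 0.322% of reads in aggregates libraries and 70.2 ± 2.03% in diffuse libraries, without passing the cluster test (edgeR adjusted p = 0.0795). It passed with a minimum of 30 counts per intron and with a cluster F test. In HSPA8, an intron with 33 reads in diffuse library 3 had none in the other 5 libraries.

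Summed over all introns of a gene and scaled to 1e+06 intron reads, the 6 genes can be set beside their gene counts. The log2 ratio of group means, aggregates over diffuse, was 0.75 for HSPA8, 0.63 for HSPA4, 0.27 for HSPA14, 0.17 for HSF1 and -0.39 for HSPA13, each of the same sign as the gene-level value. HSPH1 had 448, 460.3 and 470.5 scaled intron reads in the aggregates libraries, against 457, 463 and 456 in the diffuse libraries, a log2 ratio of 0 with overlapping groups. Its TMM-scaled gene counts did not overlap between groups, whereas its intron reads, scaled to each library's raw intron total, did. These scales are unlike. Intron totals were 28529818 to 32020553 in aggregates libraries and 25341453 to 26907926 in diffuse libraries. Gene count totals were closer, at 41528336 to 46863013 and 40279084 to 43091428 in that order. A lower intron value was not particular to HSPH1, whose gene-level log2 fold change was 0.13. The gene-level values of HSPA8, HSPA4, HSF1 and HSPA13 were 0.86, 0.73, 0.29 and -0.32, each also above the intron value. HSPA14 went the other way, with 0.18 for its summed rows. How much of these differences comes from the unlike scales was not tested, so the intron values of HSPH1 are not set against its gene-level rise.

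The partners and relatives of these genes were read from the same fit. Of 7 other HSP70 superfamily genes tested, 5 rose, 1 fell and 1 did not pass, with a median log2 fold change of 0.26, beside 75.4% passing and a median of 0.01 over all genes tested. HSPA9, the mitochondrial HSP70, rose to 561 ± 8.33 CPM in aggregates, against 323 ± 8.48 CPM in diffuse libraries (log2 fold change 0.8). HYOU1, an endoplasmic reticulum relative of the HSP110 proteins, had a log2 fold change of 0.48, HSPA12B, an endothelial relative, 0.26, and HSPA5, the endoplasmic reticulum HSP70 BiP, 0.21. HSPA1L, a testis gene next to HSPA1A, fell by 0.4 on the log2 scale at 1.84 ± 0.0598 CPM in aggregates libraries and 2.43 ± 0.138 CPM in diffuse libraries, and HSPA12A had a log2 fold change of 0.04 that did not pass (edgeR adjusted p = 0.485). HSPA6, a strictly heat-inducible HSP70 singled out after its values were seen, had 72, 72 and 65 counts in the aggregates libraries, against 33, 22 and 38 in the diffuse libraries (log2 fold change 1.09, edgeR adjusted p = 2.02e-07).

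Of 21 HSP70 cofactors, 13 rose, 7 fell and 1 did not pass, beside 37.8% rising and 37.6% falling over all genes tested. Their median log2 fold change was 0.26. The largest rises were those of BAG2, an inhibitor of the ubiquitin ligase CHIP, at 0.96, and ST13, which encodes the HSP70-binding protein HIP, at 0.94. The 7 that fell included 4 J-domain genes, DNAJB2 (-1.18), DNAJB6 (-0.69), DNAJB4 (-0.58) and DNAJA4 (-0.46), and 3 BAG family genes, BAG1 (-1.02), BAG5 (-0.83) and BAG4 (-0.34), all as log2 fold changes. Neither family moved as a whole. The J-domain genes DNAJC2 (0.59), DNAJA2 (0.56), DNAJA1 (0.26), DNAJB5 (0.26) and DNAJC7 (0.13) rose, as did BAG3 (0.38) and BAG6 (0.12) beside BAG2. DNAJB2 and DNAJB6 encode J-domain proteins known to suppress protein aggregation. DNAJB2 had 177, 175 and 174 CPM in the aggregates libraries, against 419.5, 389.6 and 383 CPM in the diffuse libraries, and DNAJB6 had 93.2, 90.9 and 93.1 CPM in the aggregates libraries, against 149, 145 and 153 CPM in the diffuse libraries. Both were lower in every aggregates library. DNAJB1, the J-domain partner of the inducible HSP70, had 244, 228 and 259 CPM in the aggregates libraries, against 246, 226 and 238 CPM in the diffuse libraries, and did not pass (log2 fold change 0.04, 95% interval -0.03 to 0.12, edgeR adjusted p = 0.321).

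Of 18 HSF1 targets outside the HSP70 family, 13 rose, 3 fell and 2 did not pass, and the median log2 fold change was 0.38. Among all genes tested, 75.4% passed, 37.8% rising and 37.6% falling. DNAJA1, DNAJB1, BAG3 and STIP1 stand in this list and among the cofactors. The largest rises were those of CRYAB, a small heat shock protein gene (1.12), the mitochondrial chaperonin genes HSPE1 (1.11) and HSPD1 (1.1), AHSA1, an activator of HSP90 (0.76), and HSP90AB1, the constitutive HSP90 (0.65), as log2 fold changes. IER5 (-0.76), a regulator of HSF1, SERPINH1 (-0.6), the collagen chaperone HSP47, and HSPB1 (-0.19), a small heat shock protein gene, fell. The ubiquitin gene UBB (-0.02, edgeR adjusted p = 0.692) and DNAJB1 did not pass. SERPINH1 fell alongside the collagen genes COL1A1 (-1.08) and COL1A2 (-1.74) of the mesenchymal marker list, and a part of that list in its value was not tested.

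Of the other HSF genes and HSF binding proteins, 5 were tested, 2 rose and none fell, beside 75.4% passing over all genes tested. Their median log2 fold change was 0.16. HSBP1, a small protein that binds HSF1 trimers, had a log2 fold change of 0.28 (edgeR adjusted p = 1.86e-11), and HSF2, a second heat shock factor, 0.12 with overlapping groups (edgeR adjusted p = 0.0294). HSF4 (0.16), HSF2BP (0.17) and HSBP1L1 (-0.56) did not pass (edgeR adjusted p = 0.288, 0.299 and 0.101 in that order), and HSF5, with 2 counts over each group, was not tested.

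**Figure D5:**
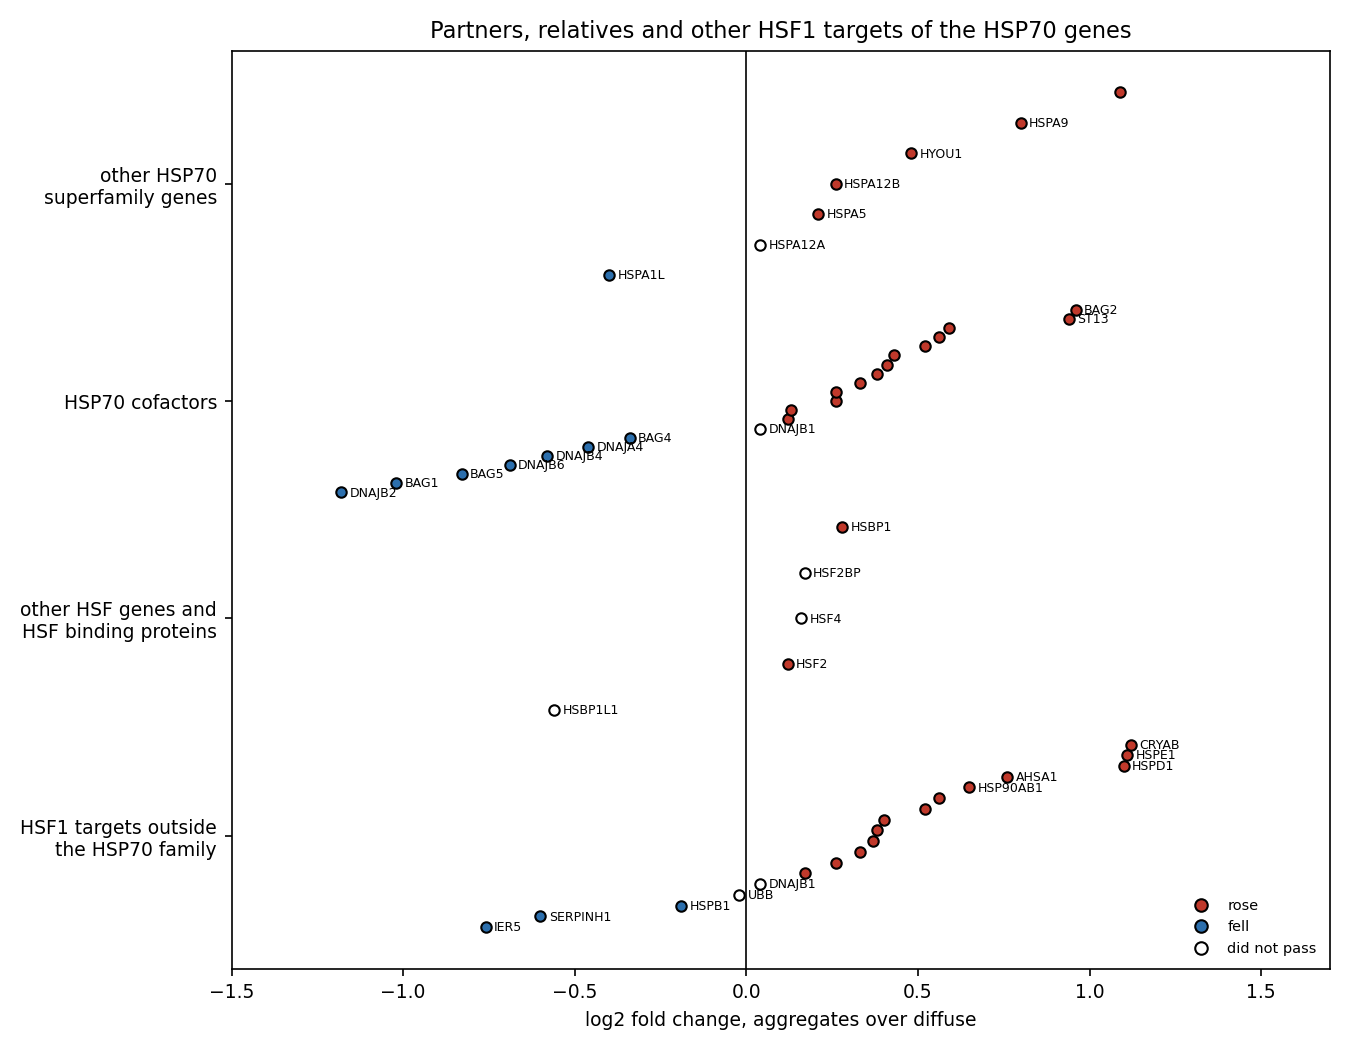
Log2 fold change, aggregates over diffuse, of each tested gene in the 4 lists of relatives, cofactors, heat shock factors and targets; red points rose, blue points fell and white points did not pass. Cofactors run from DNAJB2 at -1.18 to BAG2 at 0.96, and HSF1 targets from IER5 at -0.76 to CRYAB at 1.12.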

How the data were processed

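Polyadenylated RNA was sequenced from 6 libraries, 3 per group, with a stranded kit, per the labels' protocols. STAR 2.7.11a, fastp 0.23.2 and the build hg38 are named, per the submitters' processing notes. For the counter, its annotation and its strand setting, nothing is stated. The authors deposited raw counts per gene and counts of spliced reads per LeafCutter intron cluster, neither normalized.

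Gene tests used the quasi-likelihood F test of edgeR 4.0.16 (R 4.3.3; filterByExpr, TMM scaling, robust fit, Benjamini-Hochberg adjusted p under 0.05). Introns with at least 10 counts, in clusters with at least 2 introns and 10 counts in every library, were tested with diffSpliceDGE. Alternatives used DESeq2 1.42.0 and mgcv 1.9.3 for GC content and length. The HSPA14 rows were kept apart, and their sum was an alternative chosen after seeing the data.

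Replicates differed by more than sampling noise (chi-square per degree of freedom 2.59 to 6.34), so none was treated as a copy. The common biological coefficient of variation was 3.08%, and p-values measure the spread between transfections. Read counts carry no molecular identifiers. Exon skipping was computed for clusters with 1 skipping intron and its flanking introns.

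The genes, lists and tests were chosen with earlier results of these data known. From the list of HSF1 targets, 1 gene is not reported here. All 10 genes are named. From each list, up to 6 genes with the largest change and a mean of at least 5 CPM are named, with those in the less frequent direction and those that did not pass. Overlapping genes, the J-domain and BAG family cofactors that rose and, in called clusters, the introns that moved most are named too.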

Additional observations from a re-analysis of the deposited data

How the results depend on the processing

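HSPA1A, HSPA1B, HSPA8, HSPA4 and HSPA13 kept their direction and passed in every fit run that held them, as did the summed HSPA1A and HSPA1B, at a log2 fold change of 1.42 to 1.59. The count of called rows ranged from 6 against a fold of 1.2 to 10 without aggregates library 1, and that of all genes from 9202 against a fold of 1.2 to 14048 with no filter on low counts, beside 13455. Against a fold of 1.2, 3 of the other HSP70 superfamily genes and 0 of the other HSF genes passed in edgeR's glmTreat, 0 of the HSF genes also at an unadjusted p under 0.05. With DESeq2, 1 of the HSF genes passed, and leaving out a library gave 1 to 3. Splicing clusters called fell to 1 without aggregates library 1 or diffuse library 2 and reached 4 without diffuse library 1, the range over leaving out a library, and 6 with a cluster F test, which added the most upstream clusters of HSF1 and HSPA14. Whether replicate numbers pair the libraries was checked by correlating deviations from group means. Same-numbered libraries gave 0.0405, 0.1 and 0.11 and differently numbered ones -0.1 to -0.01, small values that leave pairing unsettled. A fit with the replicate block called 13530 genes, the same number of 9 rows and 4 clusters, and, with GC and length correction, 13648 genes. The block brought in an HSPA8 cluster and dropped that of HSPA14. The cause of these differences was not tested. Depth limits HSPA2, with 34 counts over aggregates libraries and 55 over diffuse libraries, and HSPA4L, with 62 and 77. The HSPA14 rows have no GC value and were not corrected.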
